A study of Mus musculus with 6 samples.

Results

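Retinoic acid, a vitamin A derivative that acts through nuclear receptors, was followed through 9 genes of its uptake, synthesis, binding, clearance and response in fetal mouse lungs that lack Dppa2. The genes were Stra6, Aldh1a1, Aldh1a2, Aldh1a3, Crabp1, Crabp2, Cyp26a1, Cyp26b1 and Rarb. They were chosen by name, with earlier results of these data known. Each was represented on the array by 1 probe whose accession mapped to its symbol. All 9 of 9 were on the array, and 7 of them were among the 19868 genes and unnamed transcripts, called features here, that entered the test of the whole array. These 7 lay well above background on all 6 arrays, so none entered through the group in which it was higher. Crabp2 and Cyp26a1 were below background on every array.

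RNA was taken from whole lungs of 3 wild type and 3 knockout embryos at E18.5, shortly before birth. The wild type embryos carried 15-1+/+ and 15-2+/+, and the knockout embryos 15-1Flox/Flox and 15-2-/-. ECAT15-2 is Dppa2 and ECAT15-1 is its relative Dppa4, so the null Dppa2 allele always came together with a floxed Dppa4 allele. The embryos had a mixed background from 129Sv stem cells, C57/BL6 mice and a Cre or FLPe line of unknown background, and their sex and litter were not stated. Whether the lungs came from separate litters is not known, and p-values measure only the spread between these 6 lungs.

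The arrays did not differ by genotype alone. Wild types 1 and 2 had signal from 4 Y-linked genes and none from Xist, the RNA of the inactive X chromosome. Xist was present, and the Y-linked genes were below background, in wild type 3 and in every knockout. Per the file headers, wild types 1 and 2 shared slide 1 with knockout 3, wild type 3 was on slide 2, and knockouts 1 and 2 were on slide 3. In the labels the raw data files of wild types 1 and 2 carry the number 4839, those of knockouts 1 and 2 the number 4838, and those of wild type 3 and knockout 3 the number 4938. The meaning of these numbers is not given, and if they stand for a shared origin such as a litter, the lungs within a group are not 3 independent replicates. Differences within slide 1 and within that number are therefore given beside the pooled ones. Within slide 1, wild types with Y-linked signal are set against a knockout with Xist, so genotype and sex-linked signal cannot be told apart. The shared number sets 1 lung against 1 lung, on different slides. Where the Y-linked signal is added to the model, the knockouts are in effect compared with wild type 3 alone. The Dppa2 probe read -3.25, -3.52 and -3.57 in wild types 1, 2 and 3 and -4.94, -4.98 and -4.08 in knockouts 1, 2 and 3, as log2 intensity relative to the 75th percentile of the array. It was above background in all of them, and the difference of -1.22 missed the threshold (limma adjusted p = 0.0604); where the probe lies relative to the deletion is not given in the sources used here. Dppa4 was below background on every array. Markers of lung epithelium (Nkx2-1, Sftpb, Sftpc, Foxa2 and Scgb1a1) and of lung mesenchyme (Tcf21, Tbx4, Pdgfra, Foxf1 and Col1a1) were above background on all 6 arrays.

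Retinol reaches cells bound to a carrier protein and enters some of them through the membrane receptor Stra6. It is oxidised to retinal and then, irreversibly, to retinoic acid by the retinaldehyde dehydrogenases of the Aldh1a family. Crabp proteins bind retinoic acid in the cytoplasm, Cyp26 enzymes break it down, and in the nucleus it binds receptors such as Rarb, which sit with retinoid X receptors on paired copies of a 6-base motif. In the lung retinoic acid is known for its part in bud formation from the foregut and in the formation of alveoli.

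Rarb and Cyp26a1 are both classical targets whose own promoters carry such an element, and these stretches are shown because Rarb was measured on every array and Cyp26a1 was below background on all of them. The windows from 250 bases before to 50 bases after a gene's start, taken from RefSeq on GRCm38.p6, were available for 7 of the 9 genes. Each was searched on both strands for 2 of these motifs in the same orientation with 5 bases between them: AGGTCA as the consensus, AGTTCA as its first variant, GGGTCA as the second and GGTTCA as the third. Rarb and Cyp26a1 held the element, and the other 5 genes with a window did not. It occurred in 32 of 32851 windows, or 0.0974%. The same search with 1 or 2 bases between the copies found 0.222% and 0.268% of windows and none of the 7 genes with a window, and the 3 searches can share a copy. The 250 bases before the start are given below with the paired 6-base copies in capitals. The Rarb stretch is chr14:16575477-16575726 on the minus strand, and the Cyp26a1 stretch is chr19:37697558-37697807 on the plus strand, both in GRCm38.p6.
Rarb: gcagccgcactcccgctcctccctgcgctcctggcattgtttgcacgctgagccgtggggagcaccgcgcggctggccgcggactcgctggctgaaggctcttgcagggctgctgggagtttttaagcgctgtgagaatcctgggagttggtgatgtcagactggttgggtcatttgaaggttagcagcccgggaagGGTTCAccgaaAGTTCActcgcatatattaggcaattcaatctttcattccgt
Cyp26a1: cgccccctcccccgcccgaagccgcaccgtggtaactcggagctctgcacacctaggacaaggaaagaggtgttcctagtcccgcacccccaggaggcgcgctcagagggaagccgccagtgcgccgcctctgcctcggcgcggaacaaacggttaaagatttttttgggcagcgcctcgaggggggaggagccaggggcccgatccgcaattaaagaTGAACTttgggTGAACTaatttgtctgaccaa
In Rarb the element lies on the gene's own strand, from base -53 to base -37 counted from the start. In Cyp26a1 it lies on the opposite strand, from base -32 to base -16, and reads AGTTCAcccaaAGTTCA 5′ to 3′ on that strand.

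None of the 7 tested genes passed the threshold, a limma p adjusted by Benjamini-Hochberg over all features below 0.05, which 267 features (1.34%) did. Stra6 and Aldh1a3 had higher levels in knockout lungs, and Aldh1a1, Aldh1a2, Crabp1 and Rarb lower ones. In these 6 genes no knockout array overlapped with a wild type array. Of all features 31.3% did not overlap, 17% with higher and 14.3% with lower knockout levels. The seventh, Cyp26b1, overlapped. An unadjusted p below 0.05 was reached by 5 of the 7 genes, Stra6 and Aldh1a3 with higher and Aldh1a1, Aldh1a2 and Crabp1 with lower levels, and by 25.7% of all features (15.4% higher and 10.3% lower). Adjusted p-values of the 7 ran from 0.104 to 0.879. The median difference over the 7, knockout minus wild type, was -0.25 on the log2 scale, against 0.01 over all features, and the median size of the difference was 0.64 against 0.21. As the genes were chosen with earlier results of these data known, these contrasts with all features are a description only. In bulk lung RNA fewer cells of a type and less RNA per cell cannot be told apart.

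**Figure D1:**
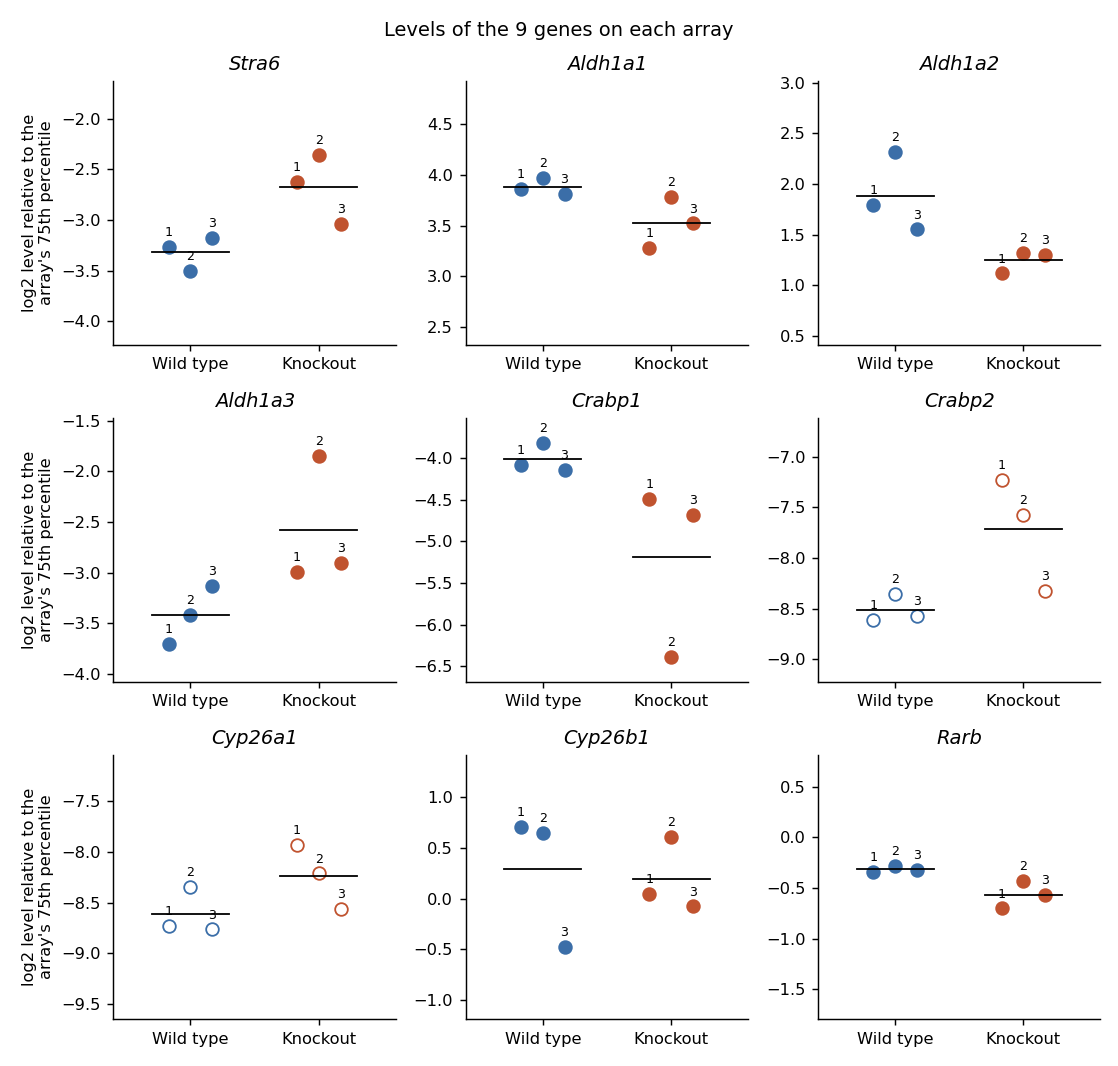
Levels of the 9 genes on each array, as log2 intensity relative to the array's 75th percentile. Numbers are replicates, horizontal lines are group means, filled points are well above background and open points are not. The vertical axis differs in position between panels and spans a wider range for Crabp1 than for the other genes. Crabp2 and Cyp26a1 are open on all 6 arrays, and in Stra6, Aldh1a1, Aldh1a2, Aldh1a3, Crabp1 and Rarb the groups do not overlap.

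Stra6, the retinol uptake receptor, was higher in all 3 knockout lungs. Its log2 level, for which 0 is the array's 75th percentile, was -3.26, -3.50 and -3.18 in wild types 1, 2 and 3 and -2.63, -2.36 and -3.04 in knockouts 1, 2 and 3. Knockout 3 lay nearest to the wild types, 0.15 above the highest of them. The difference was 0.64 (standard error, SE, 0.19; 1.56-fold; n = 3 each) with a 95% confidence interval from 0.19 to 1.09, and it did not pass (limma adjusted p = 0.104). It was 0.35 within slide 1 and 0.15 between knockout 3 and wild type 3. Without knockout 2 it was 0.48, and without knockout 3 it was 0.82 (limma adjusted p = 0.0589).

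The 3 retinaldehyde dehydrogenases did not move the same way. Aldh1a2 and Aldh1a1 were lower and Aldh1a3 was higher in the knockout lungs, and the difference between these directions was not tested.

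Aldh1a2 is the main retinoic acid producing enzyme of the early embryo and is expressed in mesothelium. Its levels were 1.79, 2.31 and 1.55 in wild types 1, 2 and 3, and 1.12, 1.32 and 1.30 in knockouts 1, 2 and 3. The wild types spread over a wider range than the knockouts, with a standard deviation (SD) of 0.39 against 0.11, and wild type 3 lay 0.23 above the highest knockout. The difference of -0.64 (SE 0.20; 1.56-fold lower; 95% interval -1.11 to -0.17) did not pass (limma adjusted p = 0.113). It was -0.75 within slide 1, and -0.25 between knockout 3 and wild type 3. Without wild type 3 Aldh1a2 was at -0.81 and passed (limma adjusted p = 0.0471). The wild types left in that fit were the 2 with Y-linked signal, so genotype and sex-linked signal cannot be told apart there. In the same fit 1971 of 19868 features passed. Without wild type 2 Aldh1a2 was at -0.43 (limma adjusted p = 0.269). When the Y-linked signal of wild types 1 and 2 was added to the model, the difference was -0.30 (limma adjusted p = 0.689).

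Markers of mesothelium and of other cell types also differed between these lungs. Of 8 mesothelial markers tested 7 had negative differences, and 1 fell, the uroplakin gene Upk1b (-1.47; limma adjusted p = 0.0375), while Calb2 differed by 0.72 and did not pass (limma). Of all features 0.619% passed as lower. The groups overlapped in 6 of the 8 mesothelial markers and did not overlap in 25% of them, against 31.3% of all features. None of the 8 was below background. Their summed intensity, in units of the 75th percentile, was 50.5 to 53.4 in wild type and 39.9 to 49.2 in knockout lungs. Most of that sum was mesothelin, Msln, which differed by -0.16 (limma adjusted p = 0.420). Another uroplakin gene, Upk3b, read 0.58, 0.92 and -0.32 in wild types 1, 2 and 3, so that wild type 3 was also the lowest wild type there. The same held for Wt1, Upk1b, Lrrn4, Bnc1 and Gpm6a. In Calb2 wild type 3 was instead the highest wild type (-5.02), and in Msln wild type 2 was the lowest (5.57).

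Heart muscle markers, summed over 7 genes, were at 25.6 to 28.1 in wild type and 10.8 to 11.998 in knockout lungs. Of these 7 genes 5 passed with lower levels (limma), against 1.34% of all features in either direction. In 6 of them the groups did not overlap, against 31.3% of all features. Summed macrophage markers were at 5.83 to 8.37 in wild type and 4.52 to 5.59 in knockout lungs. Among them Lyz2 differed by -1.09 without overlap and did not pass (limma), while Csf1r and Adgre1 overlapped at -0.13 and -0.18. Of the 4 cartilage markers Acan passed as lower (-0.89, limma adjusted p = 0.0440). It was above background only on the 3 wild type arrays and entered the test through them, so the size of its difference was not measured. Sox9 differed by -0.06, and Col2a1 and Col9a1 were higher without overlap at 0.76 and 1.81 (limma adjusted p = 0.0815 and 0.0675). The cartilage sums were 1.37 to 1.75 in wild type and 1.82 to 2.16 in knockout lungs. Of the 5 lung epithelial markers 4 had negative differences and none passed. Among them Scgb1a1, a secretory protein of club cells, differed by -1.73 (limma adjusted p = 0.0734) and the transcription factor Foxa2 by -0.29 (limma adjusted p = 0.176), both without overlap, while the epithelial sum, with the bright surfactant gene Sftpc in it, overlapped. The sums of mesenchymal, liver, and oesophageal and tracheal markers overlapped too. In the last list Krt5 (-0.58) and Trp63 (-0.44) were lower without overlap, and Krt13 (0.29) and Krt15 (0.34) were higher with overlap. None of these passed (limma). Trp63 was above background on only 5 arrays and entered the test through a single group, so the size of its difference was not fully measured. The part of these cell types in the differences of the 9 genes was not tested.

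Aldh1a1, a retinaldehyde dehydrogenase that also detoxifies other aldehydes, differed less. It was at 3.86, 3.97 and 3.81 in wild types 1, 2 and 3 and at 3.28, 3.78 and 3.52 in knockouts 1, 2 and 3. Only 0.03 separated knockout 2 from wild type 3. The difference of -0.35 (SE 0.15; 1.28-fold lower; 95% interval -0.70 to -0.01) did not pass (limma adjusted p = 0.188), and was -0.39 within slide 1 and -0.29 between knockout 3 and wild type 3. Its close relative Aldh1a7 differed by -0.22 (SE 0.11; limma adjusted p = 0.268). Probe sequences were not used here, and whether the Aldh1a1 probe also reads Aldh1a7 was not tested.

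Aldh1a3, the retinaldehyde dehydrogenase known from nasal and eye development, was higher in the knockout lungs, most of all in knockout 2. The levels were -3.70, -3.42 and -3.13 in wild types 1, 2 and 3, and -2.99, -1.85 and -2.90 in knockouts 1, 2 and 3. Knockouts 1 and 3 lay just above wild type 3, by 0.14 for the nearer one, and knockout 2 stood apart. The difference of 0.84 (SE 0.32; 1.79-fold; 95% interval 0.09 to 1.59) did not pass (limma adjusted p = 0.160). Without knockout 2 Aldh1a3 differed by 0.47, and the within-slide and within-number values were 0.66 and 0.23.

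The retinoic acid binding proteins were dim. Crabp1, which is thought to hold retinoic acid in the cytoplasm, was lower in all knockouts, and knockout 2 decided the size. Its levels were -4.07, -3.82 and -4.14 in wild types 1, 2 and 3, against -4.49, -6.39 and -4.68 in knockouts 1, 2 and 3. As intensities these were 91.9 to 108.1 in wild type and 72.3, 19.4 and 65.7 in knockout lungs, and the dimmest probe called well above background on the array of knockout 2 had 14.0. The fitted difference was -1.18 (SE 0.47; 2.26-fold lower; 95% interval -2.29 to -0.07) and did not pass (limma adjusted p = 0.175). Without knockout 2 the Crabp1 difference was -0.58 (limma adjusted p = 0.138), and it was -0.74 within slide 1 and -0.55 between knockout 3 and wild type 3. With another background correction, normexp, fitted over all spots, the sign of Crabp1 turned to 0.33, and with normexp fitted without spots far dimmer than their surroundings it was -0.55.

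Crabp2, which carries retinoic acid to the nucleus, had no array above background. Its intensities were 4.25 to 4.66 in wild type and 5.26 to 10.8 in knockout lungs, while the lowest intensity called well above background was between 14.0 and 29.3 on these arrays. No fold is given, since neither group had a measured level.

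Among the clearance enzymes, Cyp26a1 was below background in both groups and Cyp26b1 was expressed with no steady difference. The Cyp26a1 probe had intensities of 3.72 to 4.67 in wild type and 4.46 to 6.65 in knockout lungs. Cyp26b1, the clearance enzyme of many developing organs, was at 0.71, 0.65 and -0.48 in wild types 1, 2 and 3 and at 0.05, 0.61 and -0.08 in knockouts 1, 2 and 3. Wild types 1 and 2 and knockout 2 were high, wild type 3 was the lowest of all 6, and the groups overlapped. The difference was -0.10 (SE 0.34; 95% interval -0.91 to 0.71; limma adjusted p = 0.879). Cyp26b1 was lower in the knockout within slide 1 (-0.75) and higher between knockout 3 and wild type 3 (0.40). The spread among wild types (SD 0.67, n = 3) exceeded the difference between groups, and any difference inside the interval remained compatible with these data.

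Rarb, a receptor gene that retinoic acid itself induces through the element shown above, was slightly lower in all 3 knockout lungs. Its probe is spotted 10 times on each array, so its level within an array is known better than that of the other genes. The means over spots were -0.34, -0.28 and -0.32 in wild types 1, 2 and 3, and -0.70, -0.43 and -0.57 in knockouts 1, 2 and 3. The SD over the 10 spots was between 0.04 and 0.08 on each array. Between arrays it was 0.03 in wild type and 0.14 in knockout lungs. The difference of -0.25 (SE 0.11; 1.19-fold lower; 95% interval -0.51 to 0.01) did not pass (limma adjusted p = 0.211). The Rarb difference was -0.26 within slide 1, -0.24 between knockout 3 and wild type 3, and -0.24 with the Y-linked signal in the model. All of these values use knockout 3, and the latter pair rests on wild type 3 as the only wild type, so they are not separate checks. Over all alternatives tried the Rarb difference lay between -0.38 and -0.14.

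**Figure D2:**
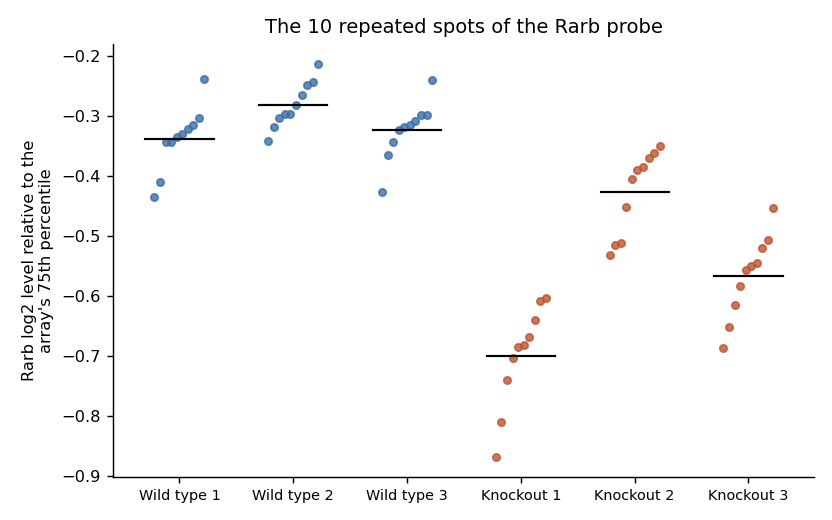
The 10 repeated spots of the Rarb probe on each of the 6 arrays, as log2 level relative to the array's 75th percentile, in ascending order within an array, with the mean of the spots as a line. The wild type means lie between -0.34 and -0.28 and the knockout means between -0.70 and -0.43.

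Different knockout lungs carried the largest differences. Of the 6 genes without overlap, knockout 1 lay farthest from the wild type mean in 3 (Aldh1a1, Aldh1a2 and Rarb) and knockout 2 in the other 3 (Stra6, Aldh1a3 and Crabp1). Knockout 2 was in turn the nearest knockout in Aldh1a1, Aldh1a2 and Rarb. Knockout 1 was nearest in Aldh1a3 and Crabp1, and knockout 3 in Stra6. With the Y-linked signal in the model none of the 7 genes passed (limma; 0 also at an unadjusted p below 0.05). Since these 6 genes were singled out for groups that do not overlap, the sign of their differences within slide 1, within the shared number and with the Y-linked signal is fixed by that choice.

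**Figure D3:**
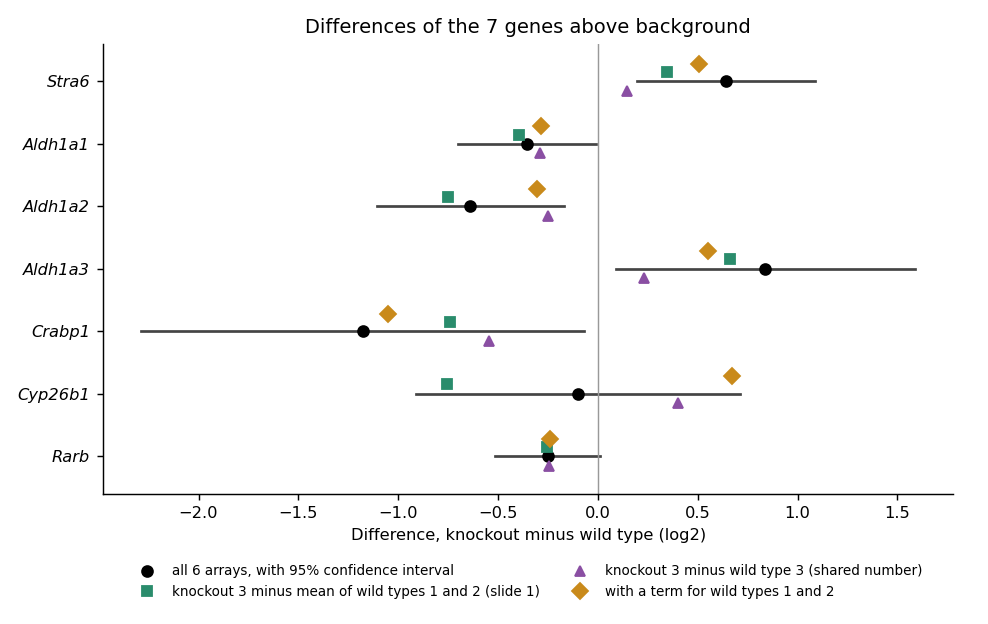
Log2 differences of the 7 genes above background, as knockout minus wild type. Circles and lines are the limma estimate over 6 arrays with its 95% confidence interval, squares and triangles are differences within slide 1 and within the shared file number, and diamonds are estimates with the Y-linked signal in the model. Markers of Rarb lie close together, and those of Cyp26b1 fall on both sides of 0.

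The rest of the retinoid pathway was described with 66 further genes, of which 64 were on the array under their RefSeq name and 47 were tested. None of the 47 passed (limma), against 1.34% of all features. An unadjusted p below 0.05 (limma) was reached by 3 of the 47, against 25.7% of all features. Of the 47 genes 14 had positive and 33 negative differences, with a median of -0.06. The median size of the difference was 0.12 against 0.21 over all features. In 10 of them, or 21.3%, the groups did not overlap, against 31.3% of all features. A further 13 were below background on all arrays, among them the carotene oxygenase Bco1 and the retinol dehydrogenases Rdh1, Rdh7 and Rdh16.

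The 6 tested genes for retinol binding, uptake and storage had a median difference of 0.02. Dgat1, an acyltransferase that can also esterify retinol, differed by 0.15 (limma adjusted p = 0.496) with overlapping groups. Among 11 tested genes for the oxidation and reduction of retinol and retinal, Rdh11, a retinal reductase, differed by 0.36 (limma adjusted p = 0.159) without overlap, and Adh5, an alcohol dehydrogenase, by 0.27. The median of this group was -0.02.

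Of the 12 tested receptors and coregulators 9 had negative differences, with a median of -0.12. Rarg, the retinoic acid receptor gamma, was at -1.85, -1.90 and -1.99 in wild types 1, 2 and 3 and at -2.19, -2.29 and -2.03 in knockouts 1, 2 and 3. It differed by -0.26 (SE 0.11; limma adjusted p = 0.205), and the groups did not overlap. Ncoa1, a coactivator of nuclear receptors, differed by -0.22. Rara, given to complete the receptor family and chosen after its value was seen, differed by -0.07 with overlapping groups.

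Among 18 tested known targets 15 had negative differences and the median was -0.06. Rarres1, a gene named for its induction by a retinoid, had the smallest p-value of all 47. It was at -3.28, -3.65 and -3.37 in wild types 1, 2 and 3 and at -2.70, -2.64 and -2.93 in knockouts 1, 2 and 3, so every knockout was higher. The difference of 0.68 (SE 0.14; 95% interval 0.34 to 1.01) missed the threshold (limma adjusted p = 0.0615), and modelled with the Y-linked signal it was 0.62 (limma adjusted p = 0.490). Hoxb5, a homeobox gene of the lung mesenchyme, differed by -0.31 (limma adjusted p = 0.188) without overlap.

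**Figure D4:**
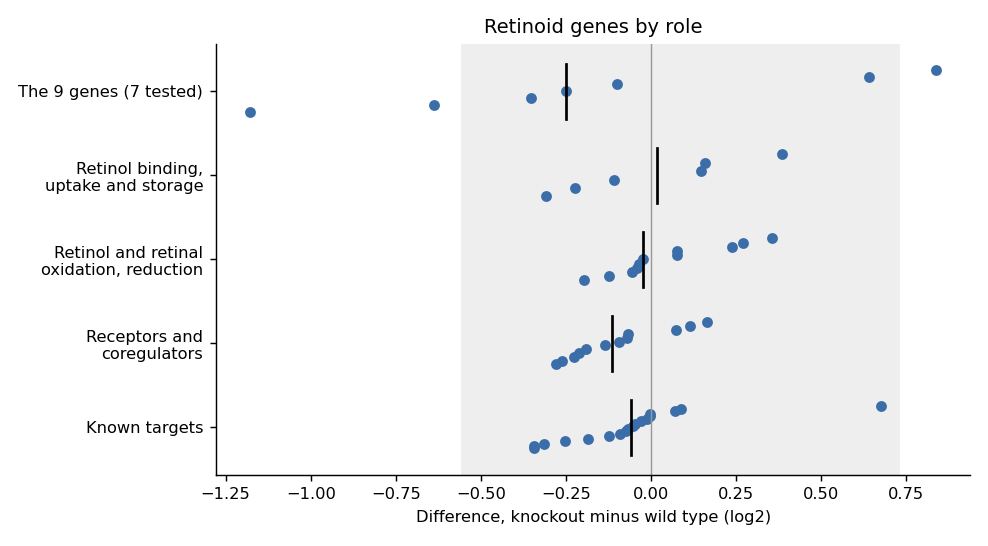
Log2 differences of the tested retinoid genes by role, as knockout minus wild type. Each point is a gene, black lines are medians, and the grey band holds 90% of all features, from -0.56 to 0.73. Of the 47 further genes all lie inside the band, while Aldh1a2, Aldh1a3 and Crabp1 lie outside it.

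The genes with the most similar pattern over the 6 arrays were sought for 4 of the 9 genes by Pearson's correlation, among named genes with an SD of at least 0.3. With 6 arrays and 3285 or 3286 candidates high values were frequent, and they are given as a description. For Aldh1a2 the closest were Atp6v1c2, Ngb and Kbtbd11 (r = 0.990, 0.990 and 0.988), and 36 genes exceeded 0.95. For Aldh1a3 they were Ccdc18, Caps2 and Nap1l5 (0.996, 0.988 and 0.977). For Rarb they were Gsta3, Olfr126 and Mien1 (0.988, 0.988 and 0.987). For Cyp26b1, the tested gene whose groups overlapped, they were Ptger3, Gm5148 and Thsd4 (0.987, 0.970 and 0.965). The arrays share slides, sex-linked signal and genotype in these comparisons.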

How the data were processed

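RNA of 6 lungs was labelled with Cy3 and hybridised to Agilent Whole Mouse Genome arrays with 1 colour, per the labels. Spots were quantified with Agilent Feature Extraction 10.7.3.1, per the file headers, and analysed by the submitters in GeneSpring GX11, per the series' design text. The deposited intensity of each spot (gProcessedSignal) is background-subtracted and not scaled between arrays. The authors also deposited log2 values, relative to the wild type median of each probe, with the scaling unstated; they correlated at 0.992 to 0.997 with quantile-normalized intensities centred in this way, and their column medians were 0 for the wild types and 0.0108, -0.00698 and -0.000844 for knockouts 1, 2 and 3.

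For each array the log2 of its 75th percentile was subtracted from all log2 intensities, spots flagged as outliers were left out (77 to 110 per array), and spots of a probe were averaged. Of 41174 probes, 26690 received a symbol through RefSeq accessions (GRCm38.p6), and 63.3% to 68.8% per array were well above background. No spot was saturated. Probes were kept if well above background on all arrays of a group, and each gene was represented by its brightest probe over all 6 arrays. The comparison used limma 3.58.1 (R 4.3.3) with no covariate, two-sided, over 19868 features.

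The 9 genes, the wider lists and the tests were chosen with earlier results of these data known. Genes of the wider list were named if called, or otherwise the 2 of smallest p per role, of which 1 is not reported here; the 3 most similar patterns were named for Aldh1a2, Aldh1a3, Cyp26b1 and Rarb. The planned normexp alternative used the median signal of a spot, which is the column used here in place of its mean. The number of arrays limits the precision.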

Additional observations from a re-analysis of the deposited data

How the results depend on the processing

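Of the 7 tested genes, Aldh1a1, Aldh1a2, Aldh1a3, Rarb and Stra6 kept their direction in all 21 alternatives, and so did Rarres1; as their groups do not overlap, leaving out arrays could not turn it. Aldh1a2 passed in 1 of them, without wild type 3 (-0.81); leaving out each array in turn therefore gave between 0 and 1 changed genes of the 9, and every other alternative gave 0. The pathway list had 0 changed genes in every alternative (limma; 0 to 10 at an unadjusted p below 0.05). The 10 came with median scaling, under which 6060 of 19868 features had an unadjusted p below 0.05 (limma). Crabp1 turned to 0.33 with normexp. Cyp26b1 turned to 0.40 when the file name number was a block and to 0.67 with a term for the arrays with Y-linked signal or without these arrays. It ranged from -0.48 to 0.11 when each array was left out in turn, and the cause was not tested. Without knockout 2 an unadjusted p below 0.05 (limma) was reached by 6 of the 7 tested genes and by 4192 of 19868 features. As reported, 5101 features reached it. At an unadjusted p below 0.05 the number among the 7 tested genes was 5 as reported and ran from 0 to 6 over the alternatives, with 0 when the file name number was a block, with the Y-linked term and without the arrays with Y-linked signal.

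Against 267 features called as reported, the count over all features was 0 with normexp (1519 at an unadjusted p below 0.05), 28 with no filter on dim probes, 23 with the slide as a block, 0 when the file name number was a block (1066), 26 with the Y-linked term, 0 without these arrays (1378), and 34 to 1971 when each array was left out, the highest without wild type 3. In the normexp fit the background mean was -1163.6 for knockout 3 and -28.9 to -1.14 for the others. Fitted without spots at least 50 below their local background (9 on knockout 3 and 4 on wild type 1), an alternative chosen after seeing the data, it was -3.65 to -1.14 on all arrays and 336 features were called. Calls split into 144 higher and 123 lower as reported, 59 and 138 with quantile normalization, 60 and 137 with the authors' values and 88 and 230 with median scaling, under which the median difference of all features was -0.12 in place of 0.01; it was 0.16 with normexp and 0.14 in the unfiltered fit. Replicate numbers did not pair the lungs: deviations of same-numbered arrays correlated at -0.02, 0.04 and 0.03, and with the replicate number as a block 55 features and 0 of the 9 genes passed.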

Other observations

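The paired element with 5 bases between its copies, which Rarb and Cyp26a1 hold, was found in the promoter windows of 31 genes, and 6 of these were among the tested features. This set was defined after the values had been seen. None of the 6 passed (limma; the smallest adjusted p was 0.104), 4 differences were negative and 2 positive, and the median was -0.13. The groups did not overlap in 3 of the 6, or 50%, against 31.3% of all features. Besides Rarb, these were Hbb-y, an embryonic beta-like globin (1.85 on the log2 scale, limma adjusted p = 0.104), and Ppbp, a platelet chemokine (-1.26, limma adjusted p = 0.204). Blvrb, Cfap45 and Tnfsf13b overlapped between the groups, at 0.41, -0.22 and -0.04.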
